A study of Mus musculus with 8 samples.

Results

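The RNA of 10 genes of the BCL2 family, which regulate apoptosis through the mitochondria, was followed in murine keratinocytes (KCs) cultured for 1 or 3 weeks. The 10 genes are Bcl2, Bcl2l1, Mcl1, Bax, Bak1, Bcl2l11, Bbc3, Pmaip1, Bid and Bad, taken by gene name from tables of 41457 genes, and each name was found once in the table of every sample. The KCs came from the tail epidermis of adult wild-type mice of the C57BL/6 strain, were left untreated and grew in serum-free medium with little calcium, being passaged as they neared confluence. There were 4 samples cultured for 1 week and 4 cultured for 3 weeks, described as 4 independent experiments. The study speaks of shared cell batches at both time points, but the labels do not tie a sample of one time point to a sample of the other. Messenger RNA was selected by its poly(A) tail and sequenced, and the comparison asks how transcript levels of one and the same kind of culture shift between these time points.

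Proteins of the BCL2 family decide whether the outer membrane of the mitochondrion stays intact. The guards BCL2, BCL-XL and MCL1 hold the pore-forming effectors BAX and BAK in check, while the BH3-only proteins BIM, PUMA, NOXA, BID and BAD, which share only a short BH3 helix with the rest, bind the guards or switch on the effectors. In epidermis these proteins are best known for setting the threshold of KCs for death after ultraviolet light and after loss of attachment, and many of them are also controlled through protein stability, phosphorylation or cleavage, which RNA levels do not show.

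Of the 10 genes, 3 passed the test for a difference between the time points, and all 3 were higher at 3 weeks. They were Pmaip1, which encodes NOXA, Bcl2l11, which encodes BIM, and Bax. None of the 10 passed the test as lower. The share of 30% of the family genes stood beside 32.8% of the 12590 genes tested in all, of which 15.7% were higher and 17% lower, so the number of family genes called was close to the background. All 10 family genes had enough reads to be tested. Here and below, log2 fold changes (log2FC) are 3 weeks over 1 week from the total exon reads, with the p-value of edgeR's quasi-likelihood test after Benjamini-Hochberg adjustment over all genes tested and a threshold of 0.05. The median log2FC was 0.37 over the 10 genes and 0.03 over all genes tested. Of the 10 estimates 9 were above 0, beside 6518 of the 12590 genes tested. In bulk RNA a rise in all cells and a larger share of cells with much of the transcript cannot be told apart, nor can fewer cells of a type and less RNA per cell.

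Promoters are shown for the 2 called genes for which the RefSeq table of the mouse genome (GRCm38.p6) held one, so that the letters upstream of genes that rose can be read. Each line gives the 250 bases before the annotated start, 5′ to 3′ on the strand of the gene. Capitals mark matches, on either strand, to the FoxO element GTAAACA, the GC box GGGCGG, the CCAAT box CCAAT and the p53 half-site. Of the 2 windows of Bcl2l11 in the table, the one printed is that of the first start, at the 5′ end of the gene as deposited. It lies at chr2:128125788-128126037 on the plus strand, and the only window of Bax at chr7:45466899-45467148 on the minus strand.
Bcl2l11: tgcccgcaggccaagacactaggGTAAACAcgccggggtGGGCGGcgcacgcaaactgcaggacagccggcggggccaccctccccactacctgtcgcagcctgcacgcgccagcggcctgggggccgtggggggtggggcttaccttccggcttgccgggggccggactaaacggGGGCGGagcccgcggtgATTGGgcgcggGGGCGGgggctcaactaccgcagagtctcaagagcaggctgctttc
Bax: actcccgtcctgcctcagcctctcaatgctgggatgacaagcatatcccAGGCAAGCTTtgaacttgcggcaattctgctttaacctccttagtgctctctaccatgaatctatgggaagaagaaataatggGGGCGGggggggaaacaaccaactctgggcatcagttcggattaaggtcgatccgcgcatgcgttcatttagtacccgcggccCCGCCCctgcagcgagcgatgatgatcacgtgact

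In this Bcl2l11 window the FoxO element GTAAACA began 227 bases before the start, and GC boxes began 211, 74 and 46 bases before it. The second window, at chr2:128127325-128127574, held no FoxO element, and its GC boxes began 181 and 127 bases before the start. In the Bax window 1 p53 half-site began 201 bases before the start, and GC boxes began 118 and 35 bases before it. Promoters were found for 9 of the 10 genes, in 15 windows because some genes have several starts. The FoxO element was present in 2 of the 15 windows, 1 each of Bcl2l11 and Bbc3, and in 3.17% of all 32851 windows in the table. A p53 half-site was present in 1 of the 15 and in 7.13% of all windows, a GC box in 10 and in 32.7%, a CCAAT box in 4 and in 33.8%, and the TATA box TATAAA in 0 and in 12.4%. These are matches of letters in windows of 250 bases, and nothing about binding was measured.

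Levels of different genes were compared as RPKM, in which the reads of a gene are scaled to its exon length and to the size of the library. At 1 week Pmaip1 ranked first of the 10 genes, followed by Bak1, Mcl1, Bax and Bcl2l1, while Bad, Bid, Bbc3, Bcl2l11 and Bcl2 followed at lower levels. The order at 3 weeks was the same except that Bax and Mcl1 changed places, with 57.8 ± 8.27 and 56.5 ± 15.3 RPKM (SD, n = 4), a difference within their spread. Neighbours whose values overlapped at 1 week were Pmaip1 and Bak1, Bax and Bcl2l1, Bad and Bid, and Bcl2l11 and Bcl2. In CPM, reads scaled to library size without regard to length, 2.23% of all genes tested had a higher mean than Pmaip1 and 6.72% a higher mean than Bcl2l1, whereas 63.9% were above Bcl2.

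**Figure D1:**
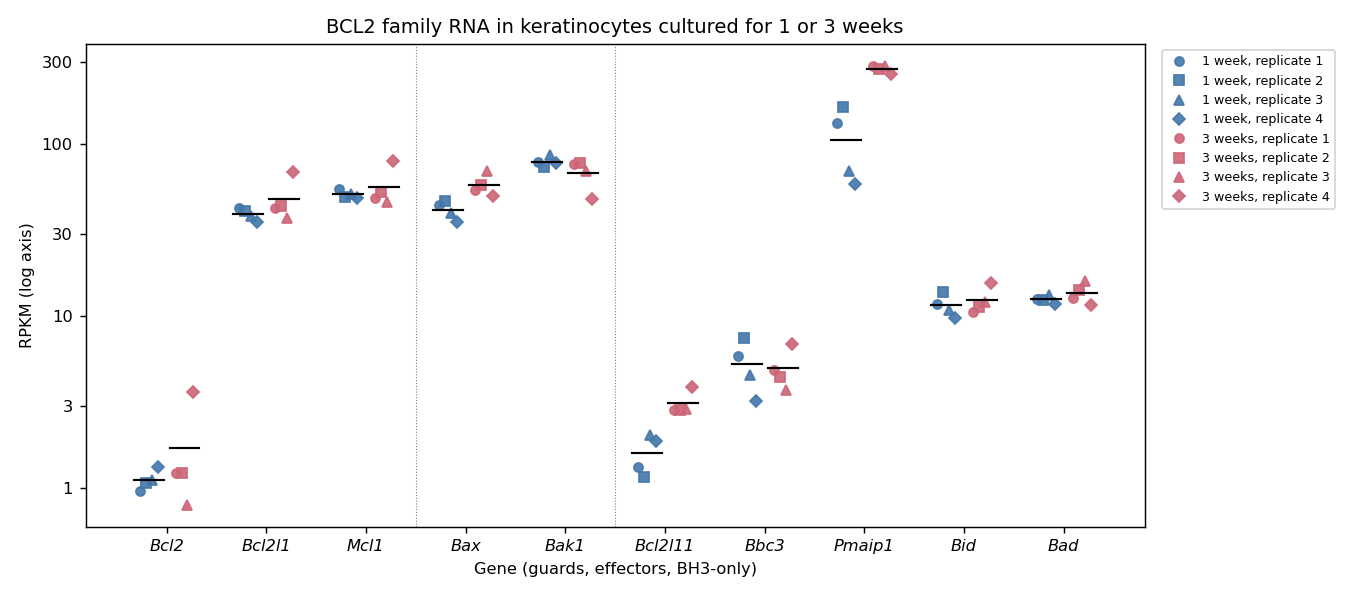
RPKM of the 10 genes in each of the 8 samples on a log axis, 1 week in blue and 3 weeks in red, with a black bar at the mean of each group of 4 and a marker shape for each replicate number. The 3-week values of Pmaip1, Bcl2l11 and Bax lie above all of their 1-week values, and replicate 4 at 3 weeks (red diamond) lies apart from the other 3 for Bcl2, Bcl2l1, Mcl1 and Bak1.

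The plot of RPKM by gene and sample shows these levels and the spread behind them. The groups did not overlap for 3 of the 10 genes, beside 37% of all genes tested, and in each of the 3 the values at 3 weeks were the higher ones, which was the case for 10.8% of all genes tested. Among all genes tested, 26.2% had all 3-week RPKM values below the 1-week values, and none of the 10 family genes did.

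Among the guards, Bcl2l1 encodes BCL-XL, a guard that protects KCs after ultraviolet light. The gene lies at chr2:152780668-152831728 on the minus strand (GRCm38, as in the deposited tables, like all gene coordinates below). It measured 42.6, 40.6, 38.2 and 35.2 RPKM in replicates 1 to 4 at 1 week and 42.1, 43.5, 37.0 and 68.2 RPKM at 3 weeks. Replicate 4 at 3 weeks was far above the other 7 samples, which overlapped. The mean went from 39.1 ± 3.22 to 47.7 ± 13.97 RPKM (SD, n = 4), and the log2FC of 0.44 ± 0.18 (SE) did not pass (adjusted p = 0.0853). Without replicate 4 at 3 weeks the log2FC was 0.24.

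Mcl1, a guard whose protein is turned over within a short time and is the main partner of NOXA, lies at chr3:95658788-95663176 on the plus strand. Its RPKM was 55.0, 48.9, 50.9 and 48.7 at 1 week and 48.4, 52.4, 46.2 and 79.1 at 3 weeks. Again replicate 4 at 3 weeks stood above all other samples, while the rest lay in one narrow range. The log2FC was 0.31 ± 0.16 (SE; 95% interval -0.06 to 0.68; adjusted p = 0.184) and 0.13 without that sample.

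Bcl2, the founding member of the family, lies at chr1:106538178-106714274 on the minus strand and was the least abundant of the 10. It was covered by 120 to 488 reads per sample. At 1 week it measured 0.964, 1.07, 1.11 and 1.33 RPKM, and at 3 weeks 1.22, 1.23, 0.798 and 3.63 RPKM. The 3-week group therefore contained both the lowest and the highest of the 8 values. The log2FC of 0.75 ± 0.40 (SE; 95% interval -0.16 to 1.66; adjusted p = 0.183) fell to 0.13 (adjusted p = 0.616) once replicate 4 at 3 weeks was left out.

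These 3 guards shared the high value of replicate 4 at 3 weeks. The summed RPKM of the guards was 91.1 ± 5.54 after 1 week and 106 ± 30.5 after 3 weeks (SD, n = 4), and it was 151 in that replicate. It was also the 3-week sample in which genes with long exons were most favoured. Against the other 3-week samples, the 3146 tested genes with exons of 6727 bases or more had a median log2 difference of 0.26. The 3148 genes with exons of up to 2710 bases had one of -0.27. In replicate 3 at 3 weeks the same differences were -0.34 and 0.37, and in replicate 1 they were 0.15 and -0.14. The guards of replicate 1 at 3 weeks summed to 91.7 RPKM. With 9157 bases of exon, Bcl2 was the longest of the 10 genes, and with a term for exon length in the normalization its log2FC was 0.64 (adjusted p = 0.163). Bcl2l1 and Mcl1 have 4586 and 3418 bases of exon. With that term their log2FC were 0.46 (adjusted p = 0.0681) and 0.35 (adjusted p = 0.149), beside 0.44 and 0.31 without it. The part of exon length in the high guard values was not tested further.

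Bax was the effector that rose. It encodes a pore protein that waits in the cytosol and inserts into mitochondria on activation, and lies at chr7:45461697-45466898 on the minus strand. At 1 week it measured 44.3, 46.3, 39.5 and 35.3 RPKM, and at 3 weeks 54.0, 58.0, 69.2 and 49.98 RPKM. Each 3-week sample lay above each 1-week sample, with the closest pair being replicate 4 at 3 weeks and replicate 2 at 1 week. The log2FC was 0.66 ± 0.17 (SE; 95% interval 0.28 to 1.04), a 1.58-fold rise (edgeR, adjusted p = 0.0162). The call was lost without replicate 4 at 1 week, the lowest sample (log2FC 0.59, adjusted p = 0.0530).

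With 1576 bases Bax had the shortest exons of the 10 genes, and its highest value was in replicate 3 at 3 weeks, the sample with more reads on short genes. Without that replicate the log2FC was 0.48 (adjusted p = 0.0177), and with the term for exon length it was 0.71 (adjusted p = 0.00128). Of the reads assigned to Bax exons, 73.7% mapped uniquely, and unique reads alone gave a log2FC of 0.63 (adjusted p = 0.0130). The annotation places 192 bases of Bax exons, or 12.2%, within exons of Gm45808 on the same strand, so that reads from these bases cannot be ascribed to one of both genes.

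Bak1 encodes the effector that resides in the mitochondrial membrane at all times, and lies at chr17:27019810-27029009 on the minus strand. Its RPKM was 78.3, 72.9, 85.9 and 77.8 at 1 week and 76.3, 77.0, 69.8 and 47.8 at 3 weeks. Here replicate 4 at 3 weeks was the low sample, and the other 7 overlapped. The log2FC was -0.05 ± 0.17 (SE; 95% interval -0.44 to 0.34; adjusted p = 0.859), and it was 0.10 without that replicate. Only 17.8% of the Bak1 reads mapped uniquely, and 25.5% of its exon bases lie opposite exons of Ggnbp1, so the level of Bak1 is less certain than that of the other genes.

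RPKM of Bax over that of Bak1 was 0.565, 0.635, 0.460 and 0.453 at 1 week and 0.708, 0.753, 0.991 and 1.05 at 3 weeks. Bax thus approached the level of Bak1 in replicates 3 and 4 at 3 weeks, through a high Bax value in the former and a low Bak1 value in the latter. Both effectors together gave 120 ± 5.29 RPKM after 1 week, and after 3 weeks 126 ± 18.8 RPKM (SD, n = 4).

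The BH3-only genes held the largest absolute log2FC among the 10 genes. Pmaip1 encodes NOXA, a small BH3-only protein that binds MCL1 and promotes its degradation, and lies on chromosome 18 from 66458604 to 66465550 on the plus strand. It measured 132, 163, 69.4 and 58.4 RPKM at 1 week and 282, 272, 284 and 255 RPKM at 3 weeks. The lowest sample at 3 weeks was well above the highest at 1 week, and the 1-week samples fell apart into replicates 1 and 2 with higher and replicates 3 and 4 with lower values. The log2FC was 1.54 ± 0.32 (SE; 95% interval 0.82 to 2.26), a 2.90-fold rise (edgeR, adjusted p = 0.00639). Of all genes tested, 9.30% had a larger absolute log2FC.

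The rise of Pmaip1 passed the test under each of the 20 alternatives, with a log2FC of at least 1.33 and an adjusted p of at most 0.0185. Its reads, 2637 to 13912 per sample, were close to 100% unique, and no exon of another gene overlaps its exons in the annotation. Marker genes of suprabasal KCs and of melanocytes differed within the 1-week group in the opposite order to Pmaip1. The summed level of 5 suprabasal KC markers (Krt1, Krt10, Ivl, Lor and Flg) was 5.56, 3.96, 20.6 and 26.7 RPKM in replicates 1 to 4 at 1 week, and that of 5 melanocyte markers (Dct, Pmel, Mlana, Tyrp1 and Mitf) was 5.07, 3.54, 16.0 and 21.2 RPKM. At 3 weeks the sums ranged from 3.86 to 13.6 RPKM for suprabasal and from 1.64 to 5.92 RPKM for melanocyte markers, with 1 gene of each list lower by the test and none higher. Sums of fibroblast markers (3.40, 4.49, 2.93 and 2.70 RPKM at 1 week) and endothelial markers (0.514, 0.559, 0.490 and 0.401 RPKM) followed the order of Pmaip1 instead. The sum of leukocyte markers, with 5.54, 3.21, 2.75 and 1.90 RPKM, was also higher in replicates 1 and 2. Not every gene followed its sum. Pecam1 measured 0.110, 0.101, 0.134 and 0.137 RPKM at 1 week, and Col1a1 0.864, 1.88, 1.14 and 1.07 RPKM. Kdr, with 0.366, 0.435, 0.324 and 0.239 RPKM, made up most of the endothelial sum. The part of any of these cells in the difference of Pmaip1 was not tested.

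Bcl2l11 encodes BIM, which binds all guards and can activate BAX and BAK directly. The gene lies at chr2:128126038-128162547 on the plus strand, next to the window printed above. It measured 1.32, 1.15, 2.02 and 1.87 RPKM at 1 week and 2.84, 2.83, 2.87 and 3.88 RPKM at 3 weeks. Both groups were separated, with 3 of the 3-week samples nearly identical and replicate 4 higher. The log2FC was 1.13 ± 0.21 (SE; 95% interval 0.65 to 1.60), a 2.18-fold rise (edgeR, adjusted p = 0.00395), from a low level of 191 to 458 reads per sample. Within the 1-week group Bcl2l11 was higher in replicates 3 and 4, the samples in which Pmaip1 was lower. The log2FC ranged from 0.99 to 1.25 with 1 sample left out at a time, and the adjusted p did not exceed 0.0229 under any of the 20 alternatives.

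Bbc3 encodes PUMA, which like BIM binds all guards and is a textbook target of p53. It lies at chr7:16308393-16318205 on the plus strand and measured 5.84, 7.43, 4.56 and 3.20 RPKM at 1 week and 4.88, 4.41, 3.73 and 6.89 RPKM at 3 weeks. The values at 3 weeks lay within the range of those at 1 week. The log2FC of 0.07 ± 0.27 (SE; 95% interval -0.53 to 0.68; adjusted p = 0.864) changed its sign when replicate 4 of either group was left out, with -0.11 without that at 1 week and -0.10 without that at 3 weeks, and when RPKM was tested in place of counts.

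Bid encodes a BH3-only protein that caspase 8 cleaves into its active form, and lies at chr6:120891930-120916853 on the minus strand. It measured 11.7, 13.9, 10.8 and 9.69 RPKM at 1 week and 10.5, 11.2, 12.1 and 15.4 RPKM at 3 weeks, and the groups overlapped. Its log2FC was 0.26 ± 0.16 (SE; adjusted p = 0.247). Of the Bid exon bases, 17.7% lie opposite exons of Bcl2l13, another family gene that fell.

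Bad encodes a BH3-only protein that survival kinases silence by phosphorylation, and lies at chr19:6941861-6951898 on the plus strand. Its RPKM was 12.6, 12.5, 13.2 and 11.7 at 1 week and 12.7, 14.1, 16.0 and 11.6 at 3 weeks. The 3-week values spread on both sides of the 1-week range. The log2FC was 0.30 ± 0.16 (SE; adjusted p = 0.1796), and it reached the threshold only with the term for exon length (0.34, adjusted p = 0.0363), whereas it was 0.13 without replicate 3 at 3 weeks. Opposite its exons lie exons of Gpr137, over 20.5% of the bases.

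**Figure D2:**
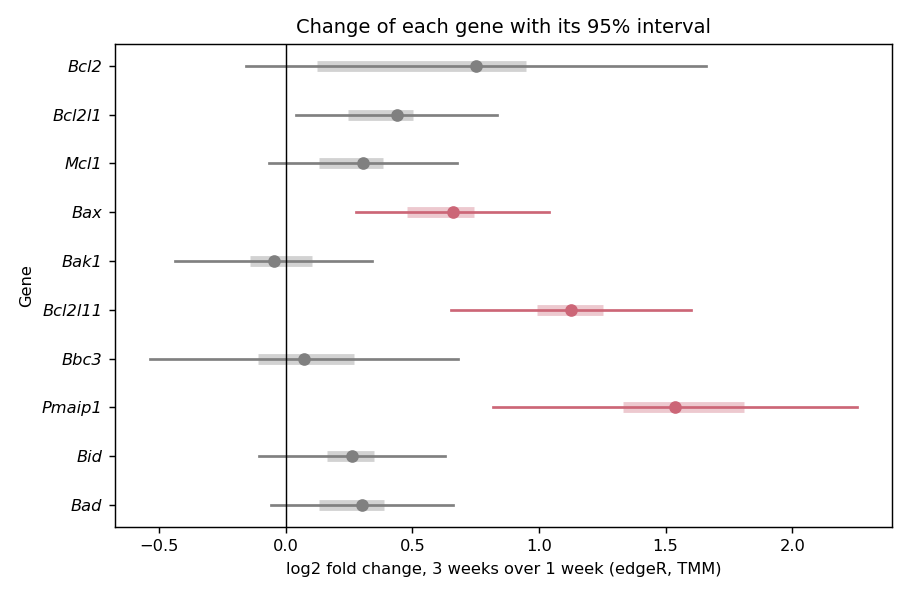
log2 fold change of each gene, 3 weeks over 1 week, from edgeR, with the point at the estimate, a thin line for the 95% interval and a thick bar for the range when 1 sample is left out at a time, in red for adjusted p under 0.05. The intervals of Pmaip1, Bcl2l11 and Bax lie furthest above 0, that of Bcl2l1 begins at 0.04, and those of the other 6 genes include 0.

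The plot of fold changes with intervals puts the called genes beside the others. Among the genes that did not pass, the intervals of Bcl2, Bcl2l1, Mcl1, Bbc3 and Bad were wide enough to include a change as large as that estimated for Bax, and a missed threshold does not show that these genes were equal at both time points.

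**Figure D3:**
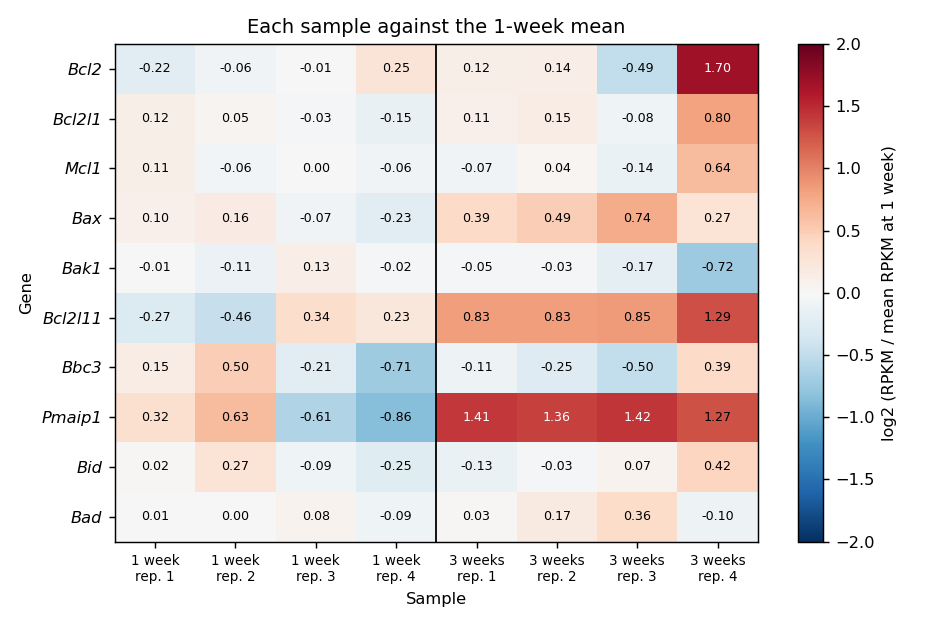
Heat map of log2 of the RPKM in each sample over the mean RPKM of the gene at 1 week, with samples in columns, genes in rows, red for higher and blue for lower, and the value printed in each cell. Pmaip1 reads 1.41, 1.36, 1.42 and 1.27 at 3 weeks, and the column of replicate 4 at 3 weeks holds 1.70 for Bcl2 and -0.72 for Bak1.

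Viewed by sample, the heat map shows which replicates carried the differences. In replicate 4 at 3 weeks, Bcl2, Bcl2l1 and Mcl1 had values of 1.70, 0.80 and 0.64, against -0.49 to 0.15 in the other 3 samples of that time point. Bcl2l11 and Pmaip1, in contrast, were above their 1-week means in all 4 samples at 3 weeks.

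As a description, the RPKM of the 10 genes was added up in each sample to see which of them made up the RNA of the family. This sum was 348 ± 58.3 RPKM after 1 week, and 539 ± 3.23 RPKM after 3 weeks (SD, n = 4). The RPKM of all genes summed to 339142 to 370490 per sample at 1 week. At 3 weeks it summed to 330529 to 477197, with the highest total in replicate 3. Sums of RPKM in different samples therefore do not refer to one common total, and their small spread at 3 weeks depends on this scale. Pmaip1 accounted for 34.3%, 40.1%, 22.0% and 20.6% of the family sum at 1 week and for 52.7%, 50.7%, 52.4% and 47.1% at 3 weeks. At 3 weeks about as much RPKM thus came from Pmaip1 as from the other 9 genes together. The 5 BH3-only genes made up 38.2 ± 8.89% at 1 week and 57.04 ± 2.19% at 3 weeks, the effectors 35.2 ± 5.48% and 23.3 ± 3.54%, and the guards 26.6 ± 3.49% and 19.7 ± 5.59%. Without Pmaip1, the other 4 BH3-only genes summed to 30.8 ± 3.47 RPKM at 1 week and 34.0 ± 2.96 RPKM at 3 weeks.

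**Figure D4:**
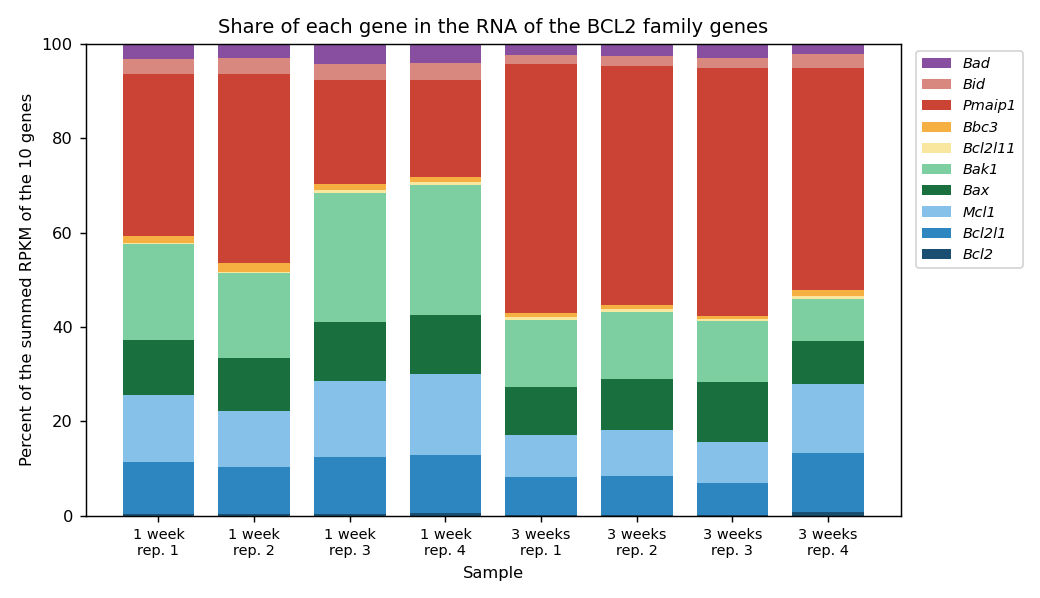
Stacked bars of the percent that each gene contributes to the summed RPKM of the 10 genes, 1 bar per sample, guards in blue, effectors in green and BH3-only genes in yellow, orange, red, pink and purple. The red segment of Pmaip1 spans 20.6% to 40.1% of the bars at 1 week and 47.1% to 52.7% at 3 weeks.

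The stacked bars display the same shares for each sample. The ratio of Pmaip1 to Mcl1, whose protein products bind each other, was 2.40, 3.34, 1.36 and 1.199 in RPKM at 1 week and 5.83, 5.196, 6.15 and 3.22 at 3 weeks. Replicate 4 at 3 weeks lay just below replicate 2 at 1 week, so these ratios overlapped. The ratio of effectors to guards was 1.24 to 1.39 at 1 week and 1.39 to 1.66 in replicates 1 to 3 at 3 weeks, and 0.647 in replicate 4. Shares and ratios of RPKM depend on each other and refer to RNA, and no test was run on them.

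The profile of Pmaip1 over the 8 samples was compared with that of 8737 genes with at least 10 CPM on average. The measure was the root mean square difference of log2 CPM after subtraction of the mean of each gene, and its median over these genes was 0.999. The smallest differences were found for Shisa4 (0.172), Tnfrsf11b (0.237), Lurap1l (0.239), Mllt11 (0.247) and Rab30 (0.251). Shisa4, for instance, measured 2.89, 3.39, 2.05 and 1.36 RPKM at 1 week and 5.66, 5.64, 6.80 and 5.21 RPKM at 3 weeks. Like Pmaip1 it was lower in replicates 3 and 4 at 1 week, but it was picked for likeness over these same samples. Tnfrsf11b encodes osteoprotegerin, a decoy receptor for ligands of the TNF family. For Mllt11, 19.5% of the reads mapped uniquely.

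Beyond the 10 genes, 15 other genes of the BCL2 family were looked at, of which 8 had enough reads to be tested. Bmf and Bcl2l2 rose, Bcl2l15 and Bcl2l13 fell, and 4 did not pass, with a median log2FC of -0.01. For this list and those below, the background was 32.8% of all genes tested, with 15.7% higher and 17% lower. Bmf, a BH3-only gene linked to loss of attachment, measured 0.350, 0.296, 0.530 and 0.540 RPKM at 1 week and 1.06, 1.03, 0.788 and 1.40 RPKM at 3 weeks, without overlap (log2FC 1.47 ± 0.26 SE, adjusted p = 0.00335). Bcl2l15 measured 22.6, 15.7, 27.2 and 21.2 RPKM at 1 week and 3.00, 4.78, 3.36 and 5.99 RPKM at 3 weeks (log2FC -2.19 ± 0.25 SE, adjusted p = 0.000473). Only 5.09% of the Bcl2l15 reads were unique, and unique reads alone gave a log2FC of -0.95 (adjusted p = 0.0213). Bcl2l13, a mitochondrial protein also known as a receptor for mitophagy, had a log2FC of -0.43 (adjusted p = 0.0114), and the call was lost in both fits with a block (-0.44 in each, adjusted p = 0.0647 by replicate number and 0.0883 by the number in the file name). Bcl2l2 encodes the guard BCL-W, and its log2FC was 0.66 (adjusted p = 0.0256) with 2.15% unique reads. Unique reads alone gave 0.73 for Bcl2l2 and did not pass (adjusted p = 0.0833), nor did it pass without the filter, in either RPKM fit or with the replicate block, where its adjusted p was 0.0527 to 0.0650. Bcl2a1a, Bcl2a1b, Bcl2a1d, Bcl2l10, Bik, Hrk and Bcl2l14 had at most 10 reads in any sample and were not tested.

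Downstream of the mitochondria, the list of apoptosome genes and caspases held 9 tested genes, of which 2 rose, 1 fell and 6 did not pass (median log2FC -0.0024). Endog, a mitochondrial nuclease, fell (log2FC -0.79, adjusted p = 0.0375). Casp6, an executioner caspase, and Apaf1, the scaffold of the apoptosome, rose by log2FC 0.49 (adjusted p = 0.0460) and 0.36 (adjusted p = 0.0477). Of 5 inhibitors of apoptosis, Birc5 fell and 4 did not pass (median -0.10). Birc5 encodes survivin, which also serves in chromosome segregation at mitosis. It went from 9.56, 8.82, 16.4 and 19.0 RPKM to 1.29, 1.93, 1.36 and 0.5003 RPKM (log2FC -3.23 ± 0.42 SE, adjusted p = 0.000815).

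The death receptor pathway reaches the BCL2 family through cleavage of BID. Of its 8 tested genes 3 rose, 1 fell and 4 did not pass (median log2FC 0.32), beside 32.8% called of all genes tested. Of these calls only the fall, that of Fadd, passed with each library left out in turn. The receptor gene Fas had a log2FC of 1.14 (adjusted p = 0.0302), Tnfrsf10b, which encodes the TRAIL receptor, one of 0.79 (adjusted p = 0.0161), and the kinase gene Ripk1 one of 0.49 (adjusted p = 0.0174). Fadd, the adapter of these receptors, fell by 0.64 on the log2 scale (adjusted p = 0.00780), with 24.5% unique reads. The ligand gene Tnfsf10 had at most 6 reads in any sample. Among binding partners and regulators of protein turnover, Dynll2, a dynein light chain that holds BMF at the cytoskeleton, rose (log2FC 0.51, adjusted p = 0.0360), and 7 of 8 did not pass (median 0.40).

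None of the 6 tested transcription factors known to drive BH3-only genes passed the test (median log2FC -0.09), and Trp73 had too few reads. Trp53, which encodes p53, measured 37.9, 38.8, 39.3 and 35.8 RPKM at 1 week and 31.7, 32.2, 25.0 and 22.5 RPKM at 3 weeks. In RPKM all its 3-week values were below the 1-week values, while the log2FC from counts was -0.29 ± 0.14 (SE; adjusted p = 0.137). Trp63, which encodes the basal KC factor p63, measured 20.8, 21.3, 28.6 and 34.1 RPKM at 1 week and 19.1, 18.9, 11.5 and 8.79 RPKM at 3 weeks, again without overlap, and had the largest absolute log2FC of this list (-0.69 ± 0.27 SE, adjusted p = 0.0809). Foxo3 had a log2FC of 0.35 ± 0.30 (SE; adjusted p = 0.402). RNA of these factors is not a measure of their activity, which is set largely at the protein level.

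**Figure D5:**
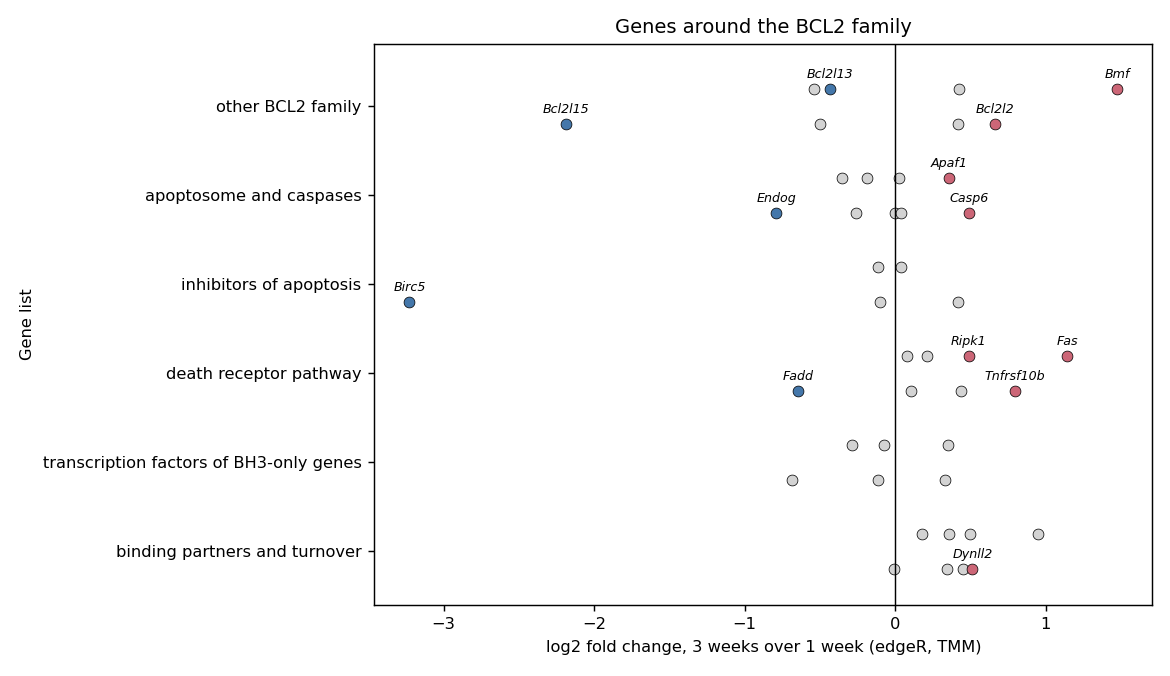
log2 fold change, 3 weeks over 1 week, of each tested gene in 6 lists of genes around the BCL2 family, with red for higher and blue for lower at adjusted p under 0.05 and grey for not passed. Birc5 and Bcl2l15 lie furthest to the left and Bmf furthest to the right, and called genes lie on both sides in 3 of the 6 lists.

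Over the 6 lists shown in the plot of related genes, 8 of 44 tested genes rose, 5 fell and 31 did not pass, so 29.5% were called beside the 32.8% of all genes tested. With 1 library left out at a time, the number called ranged from 5 to 15, beside 13 with all samples, and it was 5, 7 and 6 without replicate 1, 3 or 4 at 1 week and 7 without either replicate 1 or 2 at 3 weeks. Apaf1, Casp6 and Dynll2 lost the call when any library other than replicate 4 at 3 weeks was left out, with adjusted p up to 0.134, 0.118 and 0.0880, while their log2FC stayed at 0.27 to 0.42, 0.34 to 0.60 and 0.37 to 0.64 over all 8 such fits. Endog lost it without any of the 1-week replicates or replicate 1 or 2 at 3 weeks (up to 0.0906, log2FC -1.01 to -0.62), and Bcl2l2 without replicate 1, 3 or 4 at 1 week or 1 or 2 at 3 weeks (up to 0.0712, log2FC 0.56 to 0.84). For Fas the call was lost without replicate 1, 3 or 4 at 1 week or 2, 3 or 4 at 3 weeks (up to 0.0803, log2FC 0.88 to 1.35), for Ripk1 without replicate 1 or 4 at 1 week or 1 at 3 weeks (up to 0.0804, log2FC 0.41 to 0.54), and for Tnfrsf10b without replicate 1 or 4 at 1 week (up to 0.0620, log2FC 0.66 to 0.95). Bmf, Bcl2l15, Bcl2l13, Birc5 and Fadd passed with each library left out in turn.

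Depth was similar in both groups, with 13896807 to 20026084 exon reads per sample at 1 week and 14096649 to 18127283 at 3 weeks. Between 81.6% and 84.7% of exon reads were unique. Mitochondrially encoded genes took 2.19% to 3.66% of exon reads at 1 week and 3.73% to 4.43% at 3 weeks, except for 13.3% in replicate 3. The summed level of 7 basal KC markers was 12182 to 14439 RPKM at 1 week and 7106 to 8279 RPKM at 3 weeks. Krt5 and Krt14 made up most of this sum (means 6170 and 6941 RPKM at 1 week, 2207 and 5283 RPKM at 3 weeks). Trp63, Itga6, Itgb4 and Col17a1 measured at least 8.79 RPKM in every sample, whereas Krt15 measured only 0.591 to 2.47 RPKM. By the test 2 of the 7 markers were lower. The sums of 6 fibroblast, 6 leukocyte and 4 endothelial markers stayed at or below 5.54 RPKM in all samples, and Cd207 was at 0. On the RPKM scale the typical change was lower: limma on log2(RPKM + 0.1) gave a median of -0.16 over all genes tested, with 1292 genes higher and 3025 lower, or 29.9% of the called genes higher in place of 48.0%. On that scale 34.3% of all genes were called, and the same 3 family genes passed, with 1.496 for Pmaip1 (adjusted p = 0.00745), 0.94 for Bcl2l11 (adjusted p = 0.00810) and 0.48 for Bax (adjusted p = 0.0362). Among the called list genes, Bmf, Bcl2l15, Bcl2l13, Endog, Birc5 and Fadd also passed on that scale. Bcl2l2, Casp6, Apaf1, Fas, Tnfrsf10b, Ripk1 and Dynll2 did not, with adjusted p from 0.0512 (Fas) to 0.242 (Apaf1).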

How the data were processed

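The RNA of 8 KC samples, 4 for each culture time, was analysed from 1 gene table per sample. The authors aligned the reads to GRCm38 in the CLC Genomics Workbench, and the deposited counts are whole reads on the exons of each gene without normalization. The deposited RPKM values, computed by the authors, equal these counts per exon length and mapped reads of the sample, and the deposited TPM values served only as an alternative scale for the family shares. The annotation release and the use of strand in counting are not given in the sources used here.

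Total exon reads of all 8 samples were filtered with filterByExpr, scaled by TMM and tested without pairing with edgeR 4.0.16 (glmQLFit, glmQLFTest, Benjamini-Hochberg adjustment, threshold 0.05) in R 4.3.3. Limma 3.58.1 on log2 RPKM and DESeq2 1.42.0 were alternatives. On simulated counts for 12470 genes with 200 changed, 90% of 4-fold and 30% of 2-fold changes were recovered, with 9 false calls. Standard errors were derived from the F statistics. Exon overlaps were read from GENCODE and promoters from RefSeq. Where separate cultures are not certain, p-values measure only the spread between these samples.

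Named are the 10 genes, from each list up to 3 called rises and 3 called falls with the untested genes, and the 5 genes most like Pmaip1. Trp53, Trp63 and Foxo3, outside this rule, were named after their values were seen. The members and lists were chosen with earlier results of these data known. Ddit3 was not analysed here, and 1 further gene of the lists is not reported here.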

Additional observations from a re-analysis of the deposited data

Results flagged for a closer look

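In 4-sample groups, a value was looked at again when its gap to the nearest other sample was large against the range of the group (Dixon's criterion). This applied to 3 of the 76 groups examined, and chance alone gives about 1 in 20.

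At 3 weeks Bcl2 stood at 3.63 RPKM in replicate 4, beside 0.798, 1.22 and 1.23 RPKM in the other samples. Bcl2l11 stood at 3.88 RPKM in the same replicate, beside 2.83, 2.84 and 2.87 RPKM. Both genes have long exons (9157 and 8029 bases), and this replicate had the largest mean exon length per read of the 8 samples (5190 bases). The part of exon length in both values was not tested beyond the fit with a length term, which gave a log2FC of 0.64 for Bcl2 and 1.10 for Bcl2l11. At 1 week Dynll2 stood at 42.3 RPKM in replicate 3, beside 39.0, 39.1 and 39.1 RPKM.

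Intron reads on their own, which were compared nowhere in the report and entered only the alternative with total gene reads, showed a difference for Bcl2l1. Its introns held 28, 27, 21 and 23 reads at 1 week and 58, 58, 90 and 94 reads at 3 weeks, or 1.39 ± 0.0922 and 4.63 ± 1.57 CPM (SD, n = 4), without overlap. As a share of the reads on the gene, this was 0.746%, 0.700%, 0.828% and 0.802% at 1 week and 1.59%, 1.74%, 3.13% and 2.00% at 3 weeks, while exon reads of Bcl2l1 did not pass the test. The mean intron CPM was also higher at 3 weeks for Bcl2, Mcl1, Bax, Bak1, Bcl2l11, Pmaip1 and Bid, and lower for Bbc3 and Bad. The values of these genes overlapped, so a higher mean was not particular to Bcl2l1. How many genes outside the family had intron reads without overlap was not tested. Intronic reads over all genes made up 1.48% to 2.38% of each sample.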

How the results depend on the processing

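Of 200 values for the 10 family genes under 20 alternatives, 192 kept their direction and their side of the threshold. Bax lost the call with the file number as block (log2FC 0.52, adjusted p = 0.0584) and without replicate 4 at 1 week (0.59, 0.0530), and Bad gained it with the exon length term. The fit with the file number as block also left out replicate 2 at 1 week and replicate 3 at 3 weeks, whose numbers had no counterpart. Bak1 changed sign without replicate 4 at 3 weeks (0.10), and Bbc3 did so in limma on log2(RPKM + 0.1) and log2(RPKM + 1) (-0.049 and -0.046), without replicate 4 at 1 week (-0.11) and without replicate 4 at 3 weeks (-0.10). The causes were not tested. Family genes called numbered 2 to 4. With 1 sample left out, all calls ranged from 3015 to 4861 around 4127, family calls from 2 to 3, list calls from 5 to 15, the log2FC of Bak1 from -0.14 to 0.10 and that of Bbc3 from -0.11 to 0.27.

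A replicate block left 3 family genes, 5 list genes and 2867 genes in all called. A block on the number in the file names, without replicate 2 at 1 week and replicate 3 at 3 weeks, left 7 list genes and 3109 genes in all. Samples with the same replicate number had a mean correlation of -0.07 (-0.23 to 0.25, 4 pairs) in their deviations from the group means. For the same number in the file name it was 0.07 (-0.23 to 0.25, 3 pairs). With so few pairs these correlations cannot decide whether the samples were paired. The exon length term and the removal of mitochondrial genes were chosen after seeing the data. The lowest depth among the 10 genes was 120 reads in a sample, for Bcl2 and Bbc3.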
